A study of Sus scrofa with 8 samples.

Results

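Open chromatin was examined around 10 genes that run or restrain the cell division cycle: the D-type cyclin genes CCND1, CCND2 and CCND3, the cyclin-dependent kinase genes CDK1, CDK4 and CDK6, the kinase inhibitor genes CDKN1A, CDKN1B and CDKN1C, and the retinoblastoma gene RB1. The peaks of 8 ATAC-seq libraries, made with a transposase that cuts open DNA, were merged wherever they overlapped by 1 bp. A merged region was assigned to a gene when the nearest end of any protein-coding gene, within 50 kb, belonged to it. This gave 66 regions for 9 of the 10 genes, out of 178498 regions in all and 114950 regions linked to any of 17510 genes. CDK6 received none, because the Sscrofa11.1 gene table lists it as a long non-coding RNA. The table gives gene ends without strand, so a gene's lower and upper end are named by coordinate, and its start and its 3' end were not told apart.

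The cells are labelled as porcine muscle satellite cells, the stem cells that live beside the fibres of skeletal muscle. There are 4 groups of 2 libraries: WT 0 h and CBP 0 h, both given the label of proliferation, and WT 60 h and CBP 60 h, both given that of differentiation. The labels give WT and CBP as genotypes, and also name 5 uM/ml of SGC-CBP30, a bromodomain inhibitor of the acetyltransferases CBP and EP300, used for 48 h on proliferating and for 60 h on differentiating cells. They do not say which libraries were treated, so the groups are called WT and CBP throughout. The labels name the line C3H and RPMI medium for all 8 libraries and give no animal, age or clone. They do not say whether replicates came from separate cultures, so every p-value below rests on the spread among these libraries alone, which can be technical.

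Muscle satellite cells divide while they proliferate and leave the cell cycle when they differentiate into myotubes. D-type cyclins bind CDK4 and CDK6, and the resulting kinases phosphorylate the retinoblastoma protein, which otherwise holds E2F factors inactive and keeps cells from entering S phase. The CIP/KIP inhibitors p21, p27 and p57, encoded by CDKN1A, CDKN1B and CDKN1C, bind cyclin and CDK complexes, and p21 and p57 are known for their part in the exit of muscle precursors from the cycle. CDK1 drives entry into mitosis.

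The lists held 121757 to 135528 peaks per library at 0 h and 82696 to 88871 at 60 h. Relative depth, taken from the background value the peak caller used most often, was 1.43 to 2.08 at 0 h and 1 to 1.21 at 60 h, where 1 is the shallowest library. Depth and time therefore cannot be told apart in a count of peaks, and the counts of the 66 regions and of each gene are also given with the strongest 82696 peaks of every library. Each of 10 satellite cell and myoblast marker genes, PAX7, MYOD1 and MYF5 among them, had a region called in all 8 libraries. So did each of 5 endothelial and each of 5 fibroblast markers, 3 of 5 immune markers, 3 of 4 adipocyte markers and none of the 3 Schwann cell markers with a region. The labelled cell type is therefore not set apart by these marker regions, and no RNA was measured.

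The 66 regions were more often called at 0 h than at 60 h. Of them, 46 and 48 were called in the WT 0 h libraries, 54 and 49 in CBP 0 h, 36 and 31 in WT 60 h, and 36 and 32 in CBP 60 h. The 0 h libraries had a mean of 49.25 ± 3.40 and the 60 h libraries one of 33.75 ± 2.63 (SD, n = 4 each). These are 74.6% and 51.1% of the 66 regions, beside 71.0% and 47.7% of all linked regions. With peak numbers made equal the means were 36.25 ± 1.71 and 32.75 ± 2.06 (SD, n = 4 each), or 54.9% and 49.6%, beside 47.7% and 45.9% of all linked regions. Equal peak numbers hold the library totals close together, so a smaller fall was built in, and its source was not tested. Depth matched peaks are those that would still pass at the depth of the shallowest library. With them, 46 and 46 regions were called in WT 0 h, 54 and 49 in CBP 0 h, 36 and 31 in WT 60 h, and 36 and 32 in CBP 60 h.

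The regions ranged from those found in every library to those found in 1. All 8 libraries called 26 of the 66 regions, against a background of 31.8% of linked regions, which puts the share of 39.4% somewhat above it. A single library called 16 regions, or 24.2% beside 21.4% of all linked regions, and 24 regions lay between. The regions called everywhere were wide, with a median of 1371.5 bp, and the regions called once were narrow, with a median of 278.5 bp. These medians were 1280 and 266 bp over all linked regions. Of the 66 regions, 10 lay over a gene end, or 15.2% beside 10.3% of all linked regions. All 8 libraries called 9 of those 10, or 90% beside 86.4%. The map of calls shows 7 of the 8 RB1 regions with no call at 60 h. The share of all linked regions called only at 0 h is not given here, so this count has no background beside it. Each of the 9 genes had at least 1 region called in every library.

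**Figure D1:**
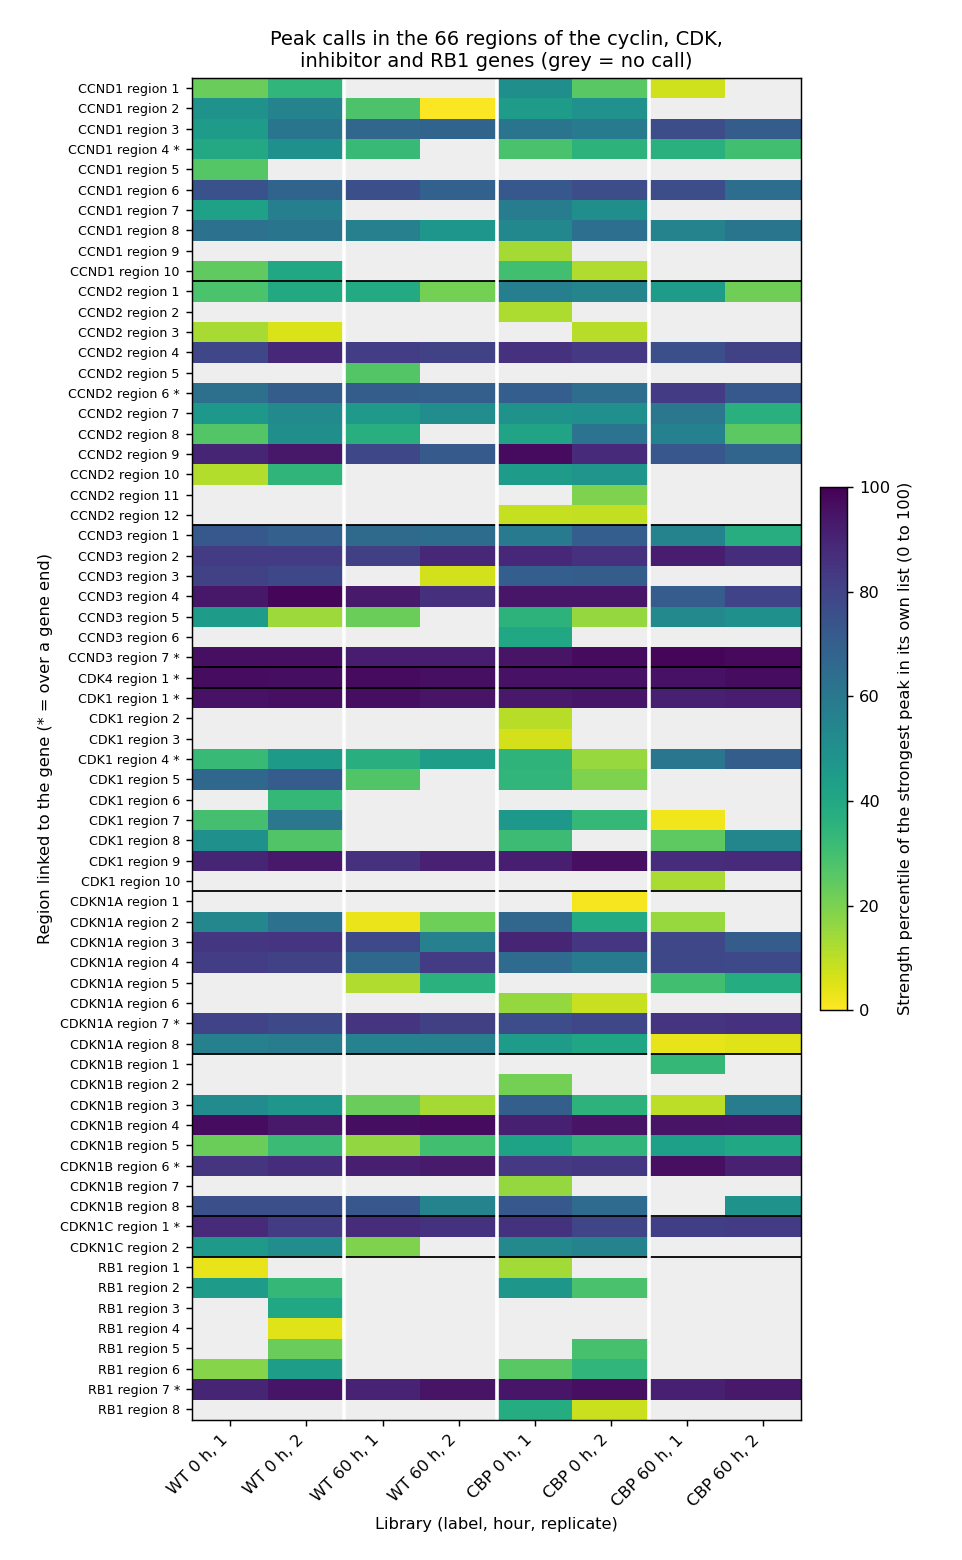
Peak calls in the 66 regions (rows, numbered by coordinate within each gene) in 8 libraries (columns), coloured by the percentile of the region's strongest peak in its own list by the authors' p-value, with grey for no call. Of the rows, 26 are filled in all 8 columns and 16 in 1 column only. Of the 8 RB1 rows, 7 are grey in every 60 h library, 2 of these with a single filled column.

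The D-type cyclin genes, whose products start the passage through G1, each had fewer called regions in every 60 h library than in any 0 h library of the full lists. This held for CCND1 with peak numbers made equal, and not for CCND2 or CCND3. CCND1, at chr2:3621242-3633380, had 10 linked regions, of which 9 and 8 were called in WT 0 h, 9 and 8 in CBP 0 h, 5 and 4 in WT 60 h and 5 and 4 in CBP 60 h. CCND2, at chr5:66092483-66114575, had 12, with 8 and 8 in WT 0 h, 9 and 10 in CBP 0 h, 7 and 5 in WT 60 h and 6 and 6 in CBP 60 h. CCND3, at chr7:37087336-37182462, had 7, with 6 and 6 in WT 0 h, 7 and 6 in CBP 0 h, and 5 in each of the 4 libraries at 60 h. The mean thus went from 8.5 ± 0.577 to 4.5 ± 0.577 for CCND1, from 8.75 ± 0.957 to 6 ± 0.816 for CCND2 and from 6.25 ± 0.5 to 5 ± 0 for CCND3 (SD, n = 4 each). The times did not overlap for any of these 3 genes, and each kept at least 4 called regions in every library. With peak numbers made equal the means were 6.25 ± 0.5 and 4.5 ± 0.577 for CCND1, 6 ± 1.41 and 6 ± 0.816 for CCND2, and 5.5 ± 0.577 and 5 ± 0 for CCND3 (SD, n = 4 each), and the times overlapped for the last 2.

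The kinase genes differed in how many regions they had. CDK4, the partner of the D-type cyclins, at chr5:23039206-23041959, had 1 linked region, over its upper end, and it was called in all 8 libraries. CDK1, the mitotic kinase, at chr14:64233945-64255290, had 10 regions, of which 6 and 7 were called in WT 0 h, 8 and 5 in CBP 0 h, 4 and 3 in WT 60 h and 6 and 4 in CBP 60 h. Its times overlapped, with a mean of 6.5 ± 1.29 at 0 h and 4.25 ± 1.26 at 60 h, or 3.75 ± 0.957 and 4 ± 0.816 with peak numbers made equal (SD, n = 4 each). Had CDK6, the other D-type cyclin partner, been taken as a gene, an addition chosen after the data had been seen, it would have had 18 regions around chr9:72510858-72765631. Of these, 14 and 14 were called in WT 0 h, 18 and 14 in CBP 0 h, and 10 in each of the 4 libraries at 60 h, and 8 were called everywhere. The CDK6 means were 10 and 9.75 with peak numbers made equal. Of the 18 regions, 5 are linked to the neighbouring gene FAM133B under the rule.

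None of the 3 inhibitor genes had fewer called regions in every 60 h library than in every 0 h library. CDKN1A, at chr7:32354776-32363771, had 8 regions, with 5 and 5 called in WT 0 h, 6 and 7 in CBP 0 h, 6 and 6 in WT 60 h and 6 and 5 in CBP 60 h. CDKN1B, at chr5:59731224-59735831, also had 8, with 5 in each library except the first CBP 0 h library, which had 7. CDKN1C, at chr2:2019391-2022092, had 2, both called in every 0 h library and in the first WT 60 h library, and 1 called in the other 3 libraries at 60 h. CDKN1A had a mean of 5.75 at both times, CDKN1B one of 5.5 and 5, and CDKN1C one of 2 and 1.25. These were 5 and 5, 4.5 and 5, and 2 and 1.25 with peak numbers made equal.

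RB1, the pocket protein gene on which the kinases act, had 1 called region in every 60 h library and at least 4 in every 0 h library of the full lists. Of 8 regions around chr11:19186754-19317642, 4 and 6 were called in WT 0 h, 5 and 5 in CBP 0 h, and 1 in each of the 4 libraries at 60 h. The mean was 5 ± 0.816 at 0 h and 1 ± 0 at 60 h (SD, n = 4 each), and the single region left was the one over its upper end. The other 7 regions were called only at 0 h. Of these, 2 were called in a single library, and only RB1 regions 2 and 6 were called in all 4 libraries at 0 h. For RB1 with peak numbers made equal the means were 2.25 ± 0.5 and 1 ± 0 (SD, n = 4 each), so the difference shrank from 4 regions to 1.25 while the times still did not overlap.

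**Figure D2:**
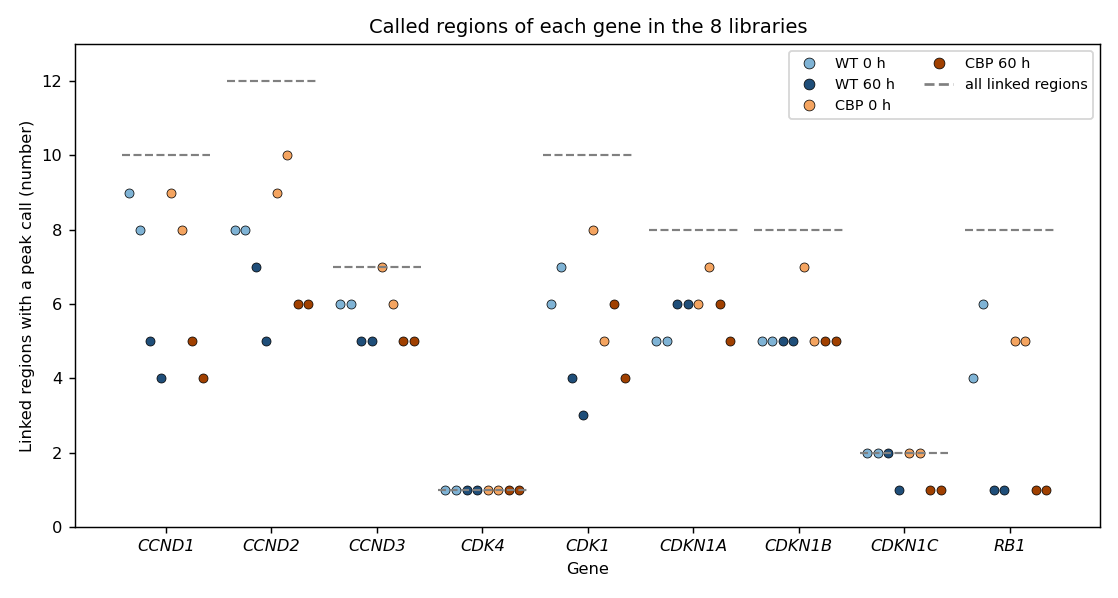
Number of linked regions with a peak call (vertical axis) for each gene in the 8 libraries (points, coloured by group), with dashed lines at the number of linked regions. CCND1, CCND2, CCND3 and RB1 are lower in all 4 libraries at 60 h than in any at 0 h, and CDKN1A lies between 5 and 7 in every library.

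An exact two-sided permutation test of 4 libraries against 4 gave p = 0.0286, the smallest it can give, for CCND1, CCND2, CCND3 and RB1. The same exact permutation test gave p = 0.0857 for CDK1, p = 0.143 for CDKN1C and p = 1 for CDKN1A, CDKN1B and CDK4. Adjusted over 17510 genes by the Benjamini-Hochberg method, the exact permutation p was 0.106 for each of the 4 lowest, and no gene passed 0.05. None could, since 10006 genes would have to reach the smallest p and 4726 did, all of them with an unadjusted p under 0.05. Fewer called regions in every 60 h library were found for 4 of the 9 genes, against a background of 27.0% of all genes, and more for none of them, against 0.0343%. Of the 9 genes, 2 remained with peak numbers made equal, CCND1 and RB1, against a background of 3.1%. With so few genes these counts are not set apart from the background.

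In the WT cells, 9 of the 66 regions closed from 0 h to 60 h, that is, were called in both 0 h libraries and in neither 60 h library, against a background of 14.3% of linked regions. Opening, the reverse, was seen in 1 region against 0.575%. The share closed, 13.6%, lay at the background. The 9 were 3 regions of CCND1, 2 of CCND2, 2 of CDK1 and 2 of RB1, and none belonged to an inhibitor gene. At 60 h the peaks of 8 of the 9, at an unchanged height per depth, would have exceeded the weakest listed peak in all 4 pairs of libraries, as would 90.8% of all closed linked regions. With peak numbers made equal, however, 1 of the 9 remained closed, CCND1 region 7, where 3.89% of all linked regions closed. With a library left out the counts, and the background, can only stay or rise. Without the first WT 60 h library the closed count was 14, against 20.2%. Without the second WT 60 h library 2 regions opened, against 2.17%.

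In the CBP cells, 12 regions closed over the same time, or 18.2% against a background of 14.5%, and 1 opened against 1.36%. These were 3 regions of CCND1, 2 of CCND2, 1 of CCND3, 1 of CDK1, 1 of CDKN1A, 1 of CDKN1C and 3 of RB1. All 12 would have exceeded the weakest listed peak at an unchanged height per depth, as would 96.9% of all closed linked regions. With peak numbers made equal 5 of them remained: CCND1 regions 2 and 7, CCND2 region 10, CCND3 region 3 and CDKN1C region 2. In all, 7 of the 66 regions were closed there, against 5.57% of all linked regions. Without the second CBP 0 h library the closed count was 20, against 25.7%. Opened regions numbered 3 without the second CBP 60 h library, against 4.11%, and 2 without the first CBP 0 h library, against 2.52%. Here too, leaving out a library can only keep or raise a count.

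Taking both labels together, 5 regions had a peak in each 0 h library and in none at 60 h, or 7.58% against a background of 5.47%, and 1 showed the reverse, against 0.109%. CCND1 region 7, at chr2:3635689-3636031, lies 2309 bp above the upper gene end and 171 bp from the region before it. Its summit pileup, the number of reads or fragments stacked over the highest point, was 78 and 101 in WT 0 h and 106 and 75 in CBP 0 h, with no peak at 60 h. It is the strongest of the 5, and the only one still closed with peak numbers made equal. The region beside it, CCND1 region 6, was called in all 8 libraries with pileups of 115, 122, 131 and 106 at 0 h and 75, 58, 69 and 57 at 60 h.

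The other 4 were weaker. RB1 region 6, at chr11:19316582-19316930, lies inside the gene, 712 bp from its upper end and 492 bp from the region over that end. It had pileups of 42 and 60 in WT 0 h and 49 and 44 in CBP 0 h. RB1 region 2, at chr11:19195333-19196347, also inside the gene, had 22, 21, 25 and 16. CCND2 region 10, at chr5:66140196-66141011 and 25621 bp above the gene, had 15, 23, 31 and 24, and CCND1 region 10, at chr2:3677362-3677948 and 43982 bp above it, had 17, 23, 20 and 13. All 4 had pileups of 60 or less, below every 0 h pileup of CCND1 region 7.

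The region that opened in every 60 h library belongs to CDKN1A, the p21 gene. CDKN1A region 5, at chr7:32348528-32348847, lies 5929 bp below the lower gene end and is 320 bp wide. Its pileups were 39 and 44 in WT 60 h and 38 and 42 in CBP 60 h, and none of the deeper 0 h libraries listed a peak there. It remained opened with peak numbers made equal in both labels. Its −log10 q was 3.68 at the lowest, so in WT it is not opened where the authors' −log10 q must reach 5. It lies 249 bp from CDKN1A region 4, a taller region called in all 8 libraries, with pileups of 60 and 73 in WT 60 h and 60 and 62 in CBP 60 h.

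**Figure D3:**
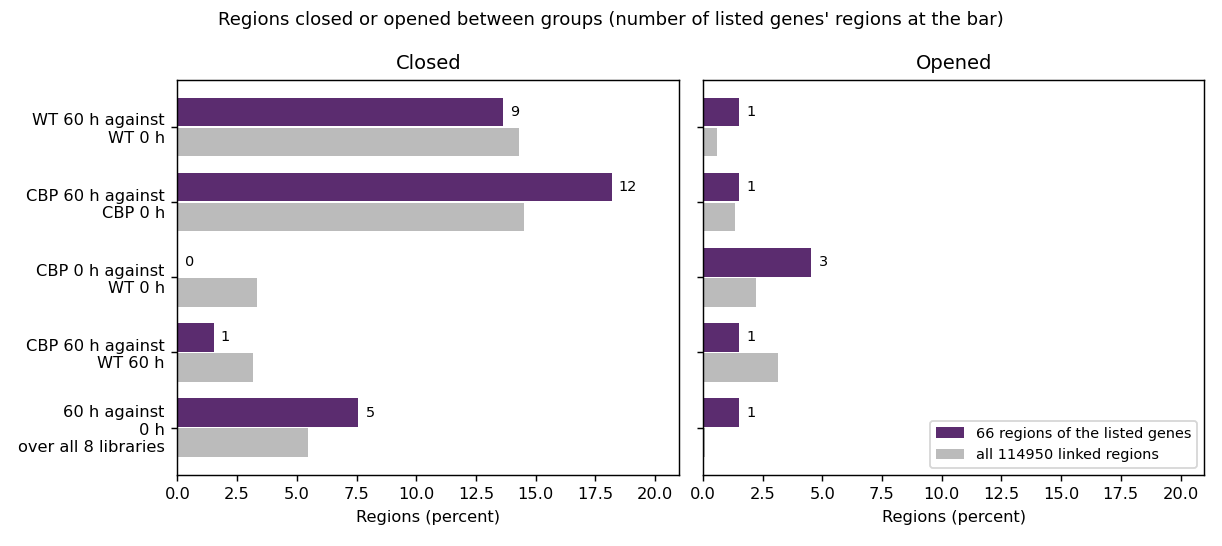
Percent of regions closed (left) and opened (right) in each comparison, for the 66 regions (purple, with the number of regions at the bar) and for all 114950 linked regions (grey). The 9 and 12 regions closed over time in WT and CBP lie near backgrounds of 14.3% and 14.5%.

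Peak height was compared in the 26 regions called in all 8 libraries, as a part of 50575 such regions. Summit pileups were scaled so that each library had the same median over these regions, and differences were tested with limma on the log2 scale, with p-values adjusted over all 50575. In WT, 9 of the 26 rose with time, against a background of 21.8%, and 1 fell, against 7.86%. In CBP, 11 rose, against 30.7%, and 3 fell, against 12.2%. Nearly all the regions over a gene end were among those that rose: 7 of 9 in WT, where 50.6% of all such regions rose, and 8 of 9 in CBP, where 67.2% did. Without the first WT 0 h library 6 of the 26 passed in WT in place of 10.

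The gene-end regions of the inhibitors and of CDK4 show the size of these changes. Over the upper end of CDKN1B, the p27 gene, scaled height was 96.7 and 99.8 in WT 0 h, 130 and 140 in WT 60 h, 91.8 and 98.8 in CBP 0 h and 155 and 137 in CBP 60 h. All 4 libraries at 60 h lay above all 4 at 0 h, and limma gave a log2 difference of 0.46 (SE 0.0964, adjusted p = 0.000488) in WT and 0.61 (SE 0.0964, adjusted p = 6.89e-06) in CBP. Over the upper end of CDKN1C, the p57 gene, scaled height was 76.8 and 73.4 in WT 0 h, 101 and 100.4 in WT 60 h, 72.3 and 64.7 in CBP 0 h and 104 and 110.0 in CBP 60 h. Here too the times did not overlap, with log2 differences of 0.43 in WT and 0.64 in CBP by limma (adjusted p = 0.00328 and 1.96e-05), although the authors' fold gave −0.066 in CBP. Without the second WT 0 h library the WT value was 0.39 and did not pass. Over the upper end of CDK4 it was 90.8 and 88.6 in WT 0 h, 118 and 118 in WT 60 h, 84.0 and 85.2 in CBP 0 h and 118 and 127 in CBP 60 h. The times were again apart, by 0.39 in WT and 0.53 in CBP on the log2 scale (limma, adjusted p = 0.00273 and 6.2e-05).

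The regions over the upper ends of RB1 and CCND3 and the lower end of CDKN1A rose in both labels as well. The log2 difference by limma was 0.47 in WT and 0.31 in CBP for RB1 region 7, whose other 7 regions had no call at 60 h. It was 0.41 and 0.50 for CCND3 region 7, which lies also within TAF8, so that the 2 genes cannot be told apart there. For CDKN1A region 7 it was 0.35 in both labels. In CBP the sign was lost with scaling by background for RB1 region 7 (−0.044) and CDKN1A region 7 (−0.0093), and in WT with the authors' fold for CCND3 region 7 (−0.011). CCND2 region 6, over the upper end of the gene, rose by 0.37 in CBP, while 0.22 in WT did not pass (limma, adjusted p = 0.00774 in CBP). CDK1 region 1, over the lower end, rose by 0.34 in WT, while 0.25 in CBP did not pass (limma, adjusted p = 0.0212 in WT). The test of the difference between the labels was passed by neither of the last 2. Leaving out 1 library ended the WT call of RB1 region 7 (0.38 without the first 0 h library), CDKN1A region 7 (0.36 without the first, 0.34 without the second) and CDK1 region 1 (0.35, 0.33, and 0.33 without the second 60 h library). In CBP it ended that of RB1 region 7 (0.21 without the first 0 h library, 0.28 without the second 60 h library) and CCND2 region 6 (0.34 without the second 0 h library, 0.24 without the first 60 h library).

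Height itself went with these changes. When the 50575 regions were split into 10 equal bins by mean height, 85.4% of the tallest bin rose in WT, with a median log2 difference of 0.42. In the bin of heights from 27.5 to 32.1 the median was −0.13. Of the 9 gene-end regions, 5 were in the tallest bin and 3 in the next. All linked gene-end regions called in all 8 libraries had medians of 0.31 in WT and 0.41 in CBP, and the 9 had 0.39 and 0.50. Scaling by background instead of by the median moved the median of all regions by −0.13 in WT and −0.36 in CBP. It also moved the split of all regions from 11013 higher and 3973 lower to 3328 and 5433 in WT, and from 15533 and 6157 to 2065 and 13872 in CBP. Under it 1 of the 26 passed in WT, CCND2 region 9 with a log2 difference of −0.59, and 7 in CBP. Of those 7, CDK1 region 4 rose by 0.805. The others fell: CCND2 regions 1, 4 and 9, CCND3 region 4, CDKN1A region 8 and CDKN1B region 3. Of the regions named here as higher at 60 h, CDK1 region 4 in CBP was the only one that still passed, so the others were shown to rise relative to other open regions, not per unit of background.

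Away from gene ends, the 17 regions went both ways. CCND3 region 2, inside the gene at chr7:37093805-37095261, rose by 0.40 in both labels, and CDKN1B region 4, 2523 bp below the gene at chr5:59727352-59728701, rose by 0.49 in WT and 0.45 in CBP. The call of CCND3 region 2 was lost in WT without the first 0 h library (0.39) or the second 60 h library (0.24), and in CBP without the first 60 h library (0.32). CCND2 region 9, 18365 bp above the gene at chr5:66132940-66135084, fell in both. Its scaled height was 67.2 and 73.4 in WT 0 h, 51.9 and 50.2 in WT 60 h, 83.4 and 69.0 in CBP 0 h and 45.7 and 44.3 in CBP 60 h. All libraries at 60 h were below all at 0 h, and limma gave −0.46 (SE 0.138, adjusted p = 0.0105) in WT and −0.75 (SE 0.138, adjusted p = 4.7e-05) in CBP. Without the second WT 0 h library the WT value was −0.40 with an adjusted p of 0.13 (limma). With the authors' fold over local background in place of the pileup it was 0.056 in WT and −0.10 in CBP, and neither passed.

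**Figure D4:**
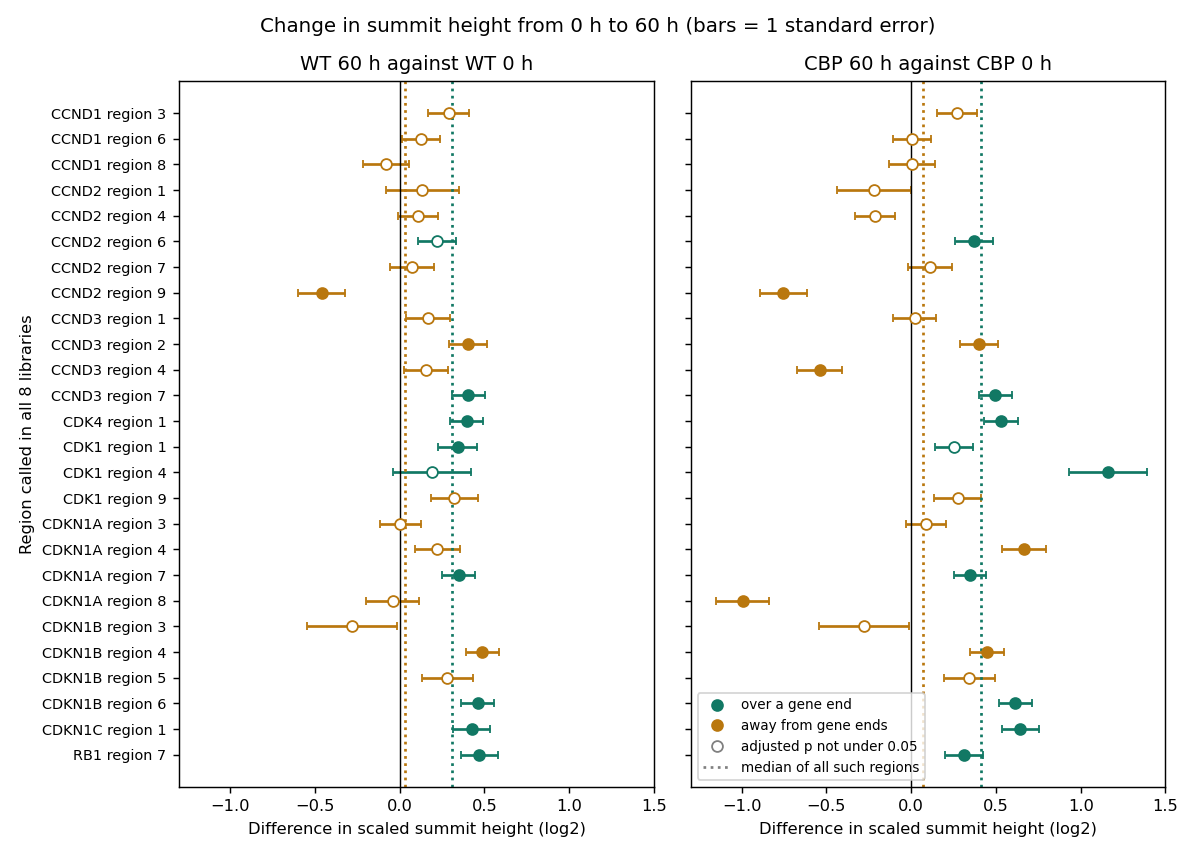
Log2 difference in scaled summit height between 60 h and 0 h (horizontal axis, bars of 1 standard error) for the 26 regions called in all 8 libraries, in WT (left) and CBP (right), with filled points for adjusted p under 0.05 and dotted lines at the median of all regions of the same kind. Regions over gene ends lie to the right of 0 in both panels, and CCND2 region 9 lies to the left in both.

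At 0 h, 3 regions opened and 1 height differed between CBP and WT around these genes. The share of the 66 regions called was 69.7% and 72.7% in WT, beside 69.8% and 73.8% of all linked regions, and 81.8% and 74.2% in CBP, beside 74.7% and 65.6%. The share was thus above that of the library in both CBP libraries and not in WT. With peak numbers made equal it was 51.5% and 57.6% in WT, beside 47.6% and 48.0% of all linked regions. In CBP it was then 56.1% and 54.5%, beside 48.1% and 47.0%. The labels overlapped, and the share was above that of the library in WT as well as in CBP. No region of the 66 closed in CBP against WT, against a background of 3.35%, and 3 opened, against 2.23%. The 3 were weak calls: CCND2 region 12 with pileups of 15 and 13, RB1 region 8 with 22 and 12, and CDKN1A region 6, 1448 bp below the gene, with 79 and 62. The CDKN1A peaks, although higher, stood over a high background, at strength percentiles 15.8 and 8.24 of their lists. None of the 3 remained with peak numbers made equal or with a −log10 q of at least 5. With a library left out the counts, and the background, can only stay or rise. Opened regions numbered 10 without the second CBP 0 h library, against 8.79%, and 5 without the first, against 5.02%. Closed regions numbered 3 without the first WT 0 h library, against 8.97%, and 1 without any other of the 4, against 4.57% to 7.42%.

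Of the 26 heights, 1 fell in CBP at 0 h, against a background of 1.34%, and none rose, against 0.158%. CDKN1A region 4, at chr7:32347167-32348278 and 6498 bp below the gene, had a scaled height of 79.7 and 75.4 in WT 0 h and 55.4 and 52.8 in CBP 0 h. The groups were apart, with a log2 difference of −0.52 (SE 0.13, adjusted p = 0.0291) by limma. At 60 h it was 75.9 and 108 in WT and 83.0 and 88.6 in CBP, which overlap, and within CBP it rose by 0.67 with time (limma, adjusted p = 0.000109). The difference at 0 h did not pass without any one of the 4 libraries, where the limma adjusted p was 0.15 to 0.4. It passed neither with scaling by background, under which all regions split into 117 higher and 376 lower in place of 80 and 677, nor with the authors' fold (−0.27).

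At 60 h, the regions that differed between CBP and WT lay at CCND1 and CDK1 by calls, and at CDKN1A, CCND3 and CDK1 by height. By calls, 1 region closed in CBP, against a background of 3.17%, and 1 opened, against 3.14%. CCND1 region 2, 195 bp below the gene, closed: its pileups were 83 and 104 in WT 0 h, 85 and 66 in CBP 0 h, 25 and 15 in WT 60 h, and no peak was listed in CBP 60 h. The second WT 60 h call was weak, with a −log10 q of 1.81, and the region was not closed with a −log10 q of at least 5 or with 50% cover. CDK1 region 8, 20590 bp above the gene, opened with pileups of 20 and 26, but not with a −log10 q of at least 5. It was not absent at 0 h, with pileups of 33 and 26 in WT 0 h and 29 in the first CBP 0 h library. In WT this region closed over time. With a library left out these counts can only stay or rise, and so can the background. Closed regions numbered 4 without the second WT 60 h library, against 7.39%, and 2 without any other of the 4, against 4.92% to 6.64%. Opened regions numbered 5 without the second CBP 60 h library, against 7.98%, and 4 without the first WT 60 h library, against 5.55%.

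By height, 2 of the 26 were lower in CBP at 60 h, against a background of 10.3%, and 1 was higher, against 11.7%. CDKN1A region 8, at chr7:32365052-32367631 and 1281 bp above the upper end of the p21 gene, had raw pileups of 85 and 90 in WT 0 h, 46 and 41 in WT 60 h, 78 and 62 in CBP 0 h and 18 and 19 in CBP 60 h. Its scaled height was 62.7 and 59.5, 58.2 and 60.5, 50.8 and 52.8, and 24.9 and 27.1 in the same order. The CBP 60 h libraries stood far below the other 6. By limma the log2 difference from WT at 60 h was −1.19 (SE 0.155, adjusted p = 1.29e-06), which is 0.438 times the WT height. The summits lay 683 and 664 bp from the region's start in WT 60 h and 681 and 684 bp in CBP 60 h, but at 1212 to 2215 bp at 0 h, so heights at the 2 times belong to different points. The peak also covered less of the region, 430 and 779 bp in CBP 60 h beside 1474 and 1674 bp in WT 60 h.

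The local background that the authors' peak caller used at CDKN1A region 8 moved with its height. It was 5.87 and 5.68 times the library floor in WT 60 h and 2.81 and 3.14 times in CBP 60 h. The authors' fold over that background was 3.45 and 3.49 in WT 60 h and 2.51 and 2.65 in CBP 60 h, a log2 difference of −0.40 that still passed (limma, adjusted p = 0.0432). With scaling by background the difference was −1.35, so the direction held on every scale tried.

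CCND3 region 4, at chr7:37116574-37118020, lies inside the gene, 29238 bp from its lower end. Its scaled height was 75.3 and 89.2 in WT 0 h, 97.4 and 85.6 in WT 60 h, 72.3 and 75.8 in CBP 0 h and 44.3 and 58.6 in CBP 60 h. The CBP 60 h libraries were again below the other 6, with a log2 difference of −0.84 (SE 0.132, adjusted p = 1.72e-05) from WT at 60 h by limma. The heights do not all belong to the same point: the summit lay 523 and 514 bp from the region's start in CBP 60 h, 1035 and 544 bp in WT 60 h, and 1001 to 1040 bp at 0 h. The local background was 4.43 and 4.33 times the floor in WT 60 h and 2.09 and 2.58 in CBP 60 h, and the authors' fold gave −0.14 with a limma adjusted p of 0.593. The difference was thus found in pileup and not in the fold. The local background was itself lower in CBP 60 h, which takes part of a height difference out of the fold. The fold therefore cannot settle whether the region stood out less.

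CDK1 region 4, over the upper end of the gene at chr14:64255113-64256139, was the one that was higher. Its scaled height was 18.5 and 21.2 in WT 0 h, 20.2 and 25.1 in WT 60 h, 17.6 and 16.2 in CBP 0 h and 33.2 and 42.9 in CBP 60 h. It is a low region, in bin 2 of the 10 bins by height, and the 2 CBP 60 h libraries were above the other 6. Within CBP it rose by 1.16 with time (limma, adjusted p = 0.000131). The summit lay 584 and 312 bp from the region's start in WT 60 h and 305 and 587 bp in CBP 60 h. The log2 difference from WT at 60 h was 0.74 (SE 0.231, adjusted p = 0.0182) by limma. It did not pass without the first WT 60 h library (0.59, limma adjusted p = 0.13), without the second CBP 60 h library (0.56, limma adjusted p = 0.17), or with scaling by background (0.59, limma adjusted p = 0.0752). That scaling also moved the split of all regions at 60 h from 5912 higher and 5209 lower to 2305 and 7779. The authors' fold gave 0.25 with a limma adjusted p of 0.359. Local background was 1.14 and 1.34 times the floor in WT 60 h and 1.56 and 1.90 times in CBP 60 h. It thus moved with the height, which takes part of a difference out of the fold.

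**Figure D5:**
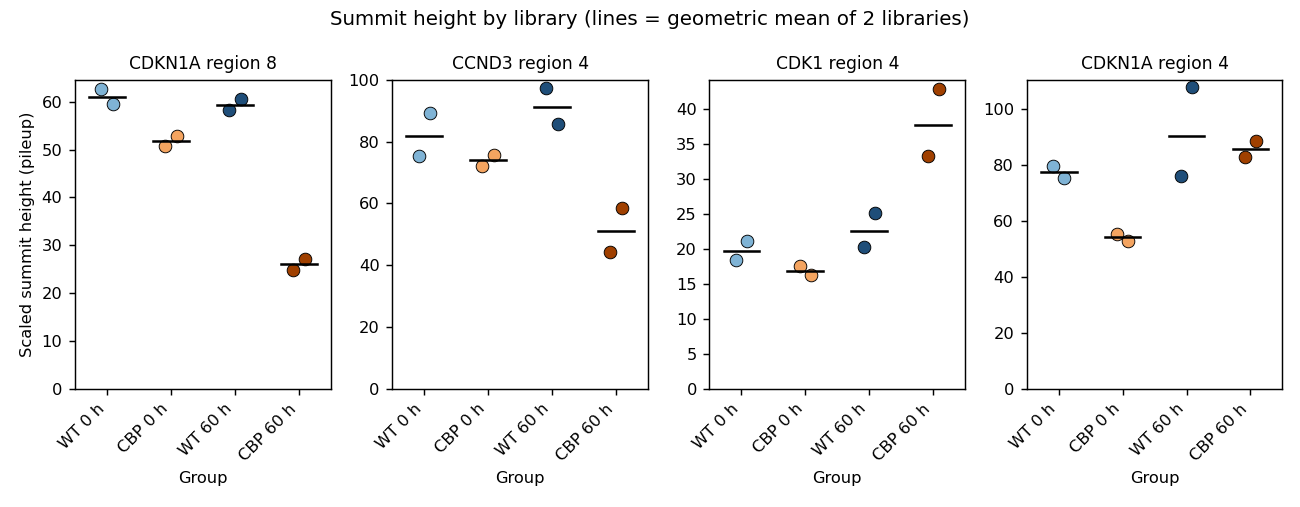
Scaled summit height (vertical axis, pileup) of 4 regions that differed between CBP and WT at 60 h or 0 h, in each library (points) with the geometric mean of each group (lines). At CDKN1A region 8 the CBP 60 h libraries lie at 24.9 and 27.1 and the other 6 between 50.8 and 62.7.

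The change with time was compared between the labels by an interaction term. Of the 26 regions, 2 had a lower change in CBP than in WT, against a background of 1.95%, and none a higher one, against 1.69%. They were CDKN1A region 8, at −0.95 (SE 0.22, adjusted p = 0.0114), and CCND3 region 4, at −0.70 (SE 0.186, adjusted p = 0.0288), by limma on the log2 scale. Within WT neither passed on scaled height, with −0.04 and 0.16, although the authors' fold gave 0.41 for the first (limma, adjusted p = 0.0245). Within CBP the first fell by 0.99 and the second fell by 0.54. That fall of CCND3 region 4 was lost without the first CBP 60 h library (−0.34), and the authors' fold gave 0.16 for CDKN1A region 8 within CBP. Each of these interactions was lost without either WT 0 h or either CBP 0 h library, where the limma adjusted p was 0.061 to 0.12 for CDKN1A region 8 and 0.053 to 0.2 for CCND3 region 4. CCND3 region 4 was also lost without the first WT 60 h or the first CBP 60 h library. With the authors' fold neither passed (−0.25 and −0.11), and scaling by background changed the split of all regions from 857 higher and 987 lower to 299 and 2640.

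Among other genes of the cell cycle machinery, regions closed over time at shares near the background. Of 42 listed genes, 40 had linked regions, 252 in all, while CDKN2A and CDC25A had none. Regions closed over time numbered 38 in WT, or 15.1% against a background of 14.3%, and 36 in CBP, or 14.3% against 14.5%. With peak numbers made equal they numbered 13 and 16, against 3.89% and 5.57% of all linked regions. The 2 and 4 regions that opened are 0.794% and 1.59%, against 0.575% and 1.36%. In CBP against WT, 7 opened and 14 closed at 0 h, or 2.78% and 5.56% against 2.23% and 3.35%, where the 66 regions had 3 opened and none closed. At 60 h 10 opened and 11 closed, or 3.97% and 4.37% against 3.14% and 3.17%. Of the 40 genes, 9 had fewer called regions in every 60 h library, or 22.5% against 27.0% of all genes. With peak numbers made equal 2 did, against 3.1%. None passed the adjusted exact permutation test. The 9 include CCNE1, the cyclin E1 gene, with a mean of 7 at 0 h and 3.25 at 60 h, E2F3 with 8.5 and 4, the RB1 relative RBL1 with 10 and 5.25, and WEE1, the kinase that restrains CDK1, with 10.25 and 4.5. Of the 82 regions called in all 8 libraries, 25 rose and 3 fell with time in WT, against 21.8% and 7.86% of all regions, and 29 rose and 8 fell in CBP, against 30.7% and 12.2%. At 60 h 6 were higher and 9 lower in CBP than in WT, against 11.7% and 10.3%, and 1 had a lower change over time in CBP, against 1.95%.

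CCND2 had the most linked regions, and its share of called regions followed a course over the 8 libraries that other genes shared closely. The share was 66.7% and 66.7% in WT 0 h, 75% and 83.3% in CBP 0 h, 58.3% and 41.7% in WT 60 h and 50% in both CBP 60 h libraries. Among 4065 genes with at least 10 linked regions, the 5 closest, by the root mean square difference over 8 libraries, were SNX30 at 2.34 percentage points, CNTFR at 4.04, FILIP1L at 4.23, MAML1 at 5.20 and PARN at 5.21. The median over all compared genes was 14.4 points. Libraries differ in depth for all genes alike, so this is a description of counts only.

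Near the limit of 50 kb, CCND1 region 10 at 43982 bp and CCND2 region 12 at 43563 bp were the farthest regions inside. The nearest outside were a CCND2 region at 57218 bp, called in 1 library, and a CCND1 region at 59128 bp, called in all 8. In all, 17 regions beyond 50 kb had one of the listed genes as their nearest.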

How the data were processed

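ATAC-seq peak lists of 8 libraries, 2 in each of 4 groups, were used. Trimmomatic, MACS2 2.1.0 and the Sscrofa11.1 build are named per the submitters' processing notes. For the aligner, duplicate removal and any transposase shift, each of which could change heights and edges, the step is not given in the sources used. The authors deposited 1 list per library, in which every peak has a score, a fold enrichment and the −log10 of its p-value and of its q-value, and which holds no read totals.

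Fold and −log10 p were solved together for the summit pileup and the local background, and all pileups came out whole within 0.01 of the −log10 p given. The commonest background value served as relative depth. The precision of a height is limited by pileups of 7 or more at the weakest listed peaks. Peaks of chromosomes 1 to 18 and X were joined at an overlap of 1 bp and linked within 50 kb (Python 3.11.15, pandas 2.3.3, scipy 1.17.1). Numbers of called regions per gene were compared by a two-sided exact permutation test over 70 splits. Heights of 50575 regions were tested with limma 3.58.1 in R 4.3.3, all 4 groups in 1 fit, with 4 residual degrees of freedom, Benjamini-Hochberg adjustment and a threshold of 0.05. On simulated data, this fit recovered 53% of regions changed by a log2 of 1 and 97% of those changed by 2. The simulation shuffled the spreads among regions and changed few of them, so these shares do not give the recovery in the data.

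All listed genes were described. Regions were named when past the limma threshold, or when opened or closed over all 8 libraries or between the labels. Of those closed over time in a single label, CCND1 region 1, CCND2 region 3 and CDK1 region 7 in WT and CDK1 region 5 in CBP were only counted. CCND1 region 4, over the upper end of that gene, was called in 7 libraries, so its height was not tested. Other regions were named as neighbours or where an alternative changed them. The genes, lists and tests were chosen with earlier results of these data known. Alternatives were the strongest 82696 peaks, a −log10 q of at least 5, 50% cover, links within 10 kb, other height scales, each library left out and a replicate block. Depth matched peaks and CDK6 as a gene were added after seeing the data. The planned search for promoter motifs was not run, since no sequence was used here.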

Additional observations from a re-analysis of the deposited data

Results flagged for a closer look

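At 1 gene and time, 1 of 4 libraries stood apart from the other 3 by Dixon's criterion in 4 cases. The first CBP 0 h library called 7 regions of CCND3, where the other 0 h libraries called 6, and 7 regions of CDKN1B, where the others called 5. The second CBP 60 h library called 5 regions of CDKN1A, where the other 60 h libraries called 6. The first WT 60 h library called 2 regions of CDKN1C, where the others called 1. In counts this small, 3 equal values and 1 other always pass the criterion, and all 4 cases are of this kind. The usual rate of about 1 in 20 groups by chance alone does not hold for such counts.

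In 2 regions the change with time differed between the labels by the interaction term of limma. It was −0.95 for CDKN1A region 8 and −0.70 for CCND3 region 4 on the log2 scale of scaled summit height.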

How the results depend on the processing

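With peak numbers made equal, closed regions numbered 1 in WT over time, against 3.89% of all linked regions, and 7 in CBP, against 5.57%. Over all 8 libraries 1 closed, against 1.27%. Between labels 1 closed at 0 h, against 2.35%, and 2 at 60 h, against 3.45%. Regions opened over time numbered 2 in WT, against 2.62%, and 4 in CBP, against 3.64%. With −log10 q of at least 5, 8 closed over all 8 libraries, against 6.49%, and 0 opened there, against 0.0565%. Also 0 opened in WT over time, against 0.328%, and between labels at 0 h, against 1.8%, or at 60 h, against 2.34%. With 50% cover, 2 opened in CBP over time, against 1.47%. Between labels 1 then closed at 0 h, against 4.3%, and 3 at 60 h, against 3.29%. Within 10 kb, where 45 regions were linked, 5 closed in WT, against 12.7%, and 3 over all 8, against 4.74%. None of them, 0, opened at 60 h between labels, against 2.38%. With CDK6, which made 84 regions, 5 opened between labels at 0 h, against 2.23%. At 60 h 3 opened, against 3.14%, and 2 closed, against 3.17%. Depth matched peaks moved no count past 1.5 times.

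Of the 26 heights, the authors' fold put 4 past the threshold in WT over time, 8 in CBP, 0 at 0 h and 0 for the interaction. At 60 h between labels it put CDKN1A region 8 (−0.40) and CCND3 region 7 past it, the latter by 0.54 (limma, adjusted p = 0.0359). Scaling by background put 1, 7 and 0 (at 0 h) past it. All were lower at 60 h except CDK1 region 4 in CBP. With regions called in both groups compared, 2 passed at 0 h. Signs reversed with the authors' fold for CCND2 region 9 (0.056) and CCND3 region 7 (−0.011) in WT, and CDKN1C region 1 (−0.066) and CDKN1A region 8 (0.16) in CBP, and with scaling by background for CDKN1A region 7 (−0.0093) and RB1 region 7 (−0.044) in CBP. The cause was not tested.

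With 1 library left out, the lone library of an arm being assumed to vary like the others, closed counts ranged from 10 to 14 in WT, 13 to 20 in CBP, 5 to 7 over all 8, 1 to 3 at 0 h and 2 to 4 at 60 h. Opened counts ranged from 1 to 2, 1 to 3, 1 to 1, 3 to 10 and 1 to 5 in the same order. A count of calls can only stay or rise with a library left out, so these ranges are no measure of stability. Over all linked regions the closed share was 18.1% to 23.9% in WT and 18.7% to 25.7% in CBP. It was 6.1% to 7.37% over all 8 libraries, 4.57% to 8.97% at 0 h and 4.92% to 7.39% at 60 h. The opened share was 0.884% to 2.25%, 1.66% to 4.11%, 0.117% to 0.177%, 3.85% to 8.79% and 4.69% to 7.98% in that order. Heights past the threshold ranged from 6 to 13 in WT, 11 to 15 in CBP, 0 to 1 at 0 h, 2 to 3 at 60 h and 0 to 3 for the interaction, and genes past the adjusted exact test from 0 to 0.

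Replicate numbers share only a number: deviations of same-numbered libraries correlated by −0.041 to 0.049 between groups. The fit with replicate number as a block passed 10, 14, 1, 3 and 2 heights and 0 genes, the same counts as without it. Depth was lower at 60 h. For the closed regions, the calls to be had at an unchanged height per depth are given above, and the cause of the missing calls was not tested. Strand, promoters and transcripts were not analysed here.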
